A study of Mus musculus with 6 samples.

Results

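The chemokine ligand genes were examined in cultured mouse aortic endothelial cells (EC) with and without overexpression of the homeobox transcription factor Meis1. Members were all genes of the deposited count table whose symbol was Ccl, Cxcl, Cx3cl or Xcl followed by a number and at most 1 letter, which gave 39 of 54429 genes: 24 Ccl, 13 Cxcl, 1 Cx3cl and 1 Xcl gene. Pf4 and Ppbp, platelet chemokines with other symbols, were outside this rule and were read as a separate list. RNA came from primary aortic EC of adult wild-type C57BL/6 mice, bought from a supplier, and all 6 libraries came from transduced and sorted cells. In 3 libraries the cells carried a lentiviral Meis1 overexpression vector (Meis1-OE EC) and in 3 a YFP vector without Meis1 (YFP-CTRL EC). In both groups 100000 cells were plated, transduced for 48 h and, after 72 h, sorted for YFP, CD31 and VEC, then plated again and grown to confluency, and ribodepleted RNA-seq was made from 300 to 400 ng of RNA of 300000 cells. The groups therefore compare a forced transgene in cultured adult cells, with no untransduced cells among them. Libraries are named by group and by the letter (A, B, C) that their column carries. No source says whether the replicates came from separate mice, so p-values measure the spread between these transduced cultures.

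Chemokines are small secreted proteins that bind G protein-coupled receptors and direct the movement of leukocytes and progenitors. Endothelium is both a source of them and the surface on which they act, since heparan sulfate holds them on the vessel wall where they trigger firm adhesion of rolling leukocytes. The CXC ligands include neutrophil attractants such as Cxcl1 and Cxcl2, interferon-induced T cell attractants such as Cxcl9, Cxcl10 and Cxcl11, and the homeostatic ligand Cxcl12, which retains hematopoietic stem cells through Cxcr4. The CC ligands Ccl2 and Ccl7 attract monocytes through Ccr2, Ccl11 attracts eosinophils through Ccr3, and Cx3cl1 (fractalkine) is made as a membrane-anchored protein. Many inflammatory members are early targets of NF-kB and several lie side by side in the genome as products of gene duplication.

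The upstream sequences are shown because they separate the members by the motifs they carry: the neutrophil attractants Cxcl1, Cxcl2 and Cxcl3 share one NF-kB match, Cxcl10 carries NF-kB and interferon motifs, and the most counted ligand, Cxcl12, carries neither. They were read 5′ to 3′ in the direction of each gene from the RefSeq promoter table of build GRCm38.p6, and end at the last base before the annotated start. Capitals mark matches to the NF-kB consensus or, at the far left of Cxcl10, to the interferon-stimulated response element.
Cxcl1, chr5:90891145-90891244, plus strand: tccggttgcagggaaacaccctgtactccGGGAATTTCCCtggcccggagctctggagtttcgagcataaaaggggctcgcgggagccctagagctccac
Cxcl2, chr5:90903779-90903898, plus strand: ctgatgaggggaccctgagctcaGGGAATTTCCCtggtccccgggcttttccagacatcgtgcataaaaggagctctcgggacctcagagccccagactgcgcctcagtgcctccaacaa
Cxcl3, chr5:90786001-90786100, plus strand: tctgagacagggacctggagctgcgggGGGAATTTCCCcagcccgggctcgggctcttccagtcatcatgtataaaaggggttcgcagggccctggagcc
Cxcl10, chr5:92348890-92349109, minus strand: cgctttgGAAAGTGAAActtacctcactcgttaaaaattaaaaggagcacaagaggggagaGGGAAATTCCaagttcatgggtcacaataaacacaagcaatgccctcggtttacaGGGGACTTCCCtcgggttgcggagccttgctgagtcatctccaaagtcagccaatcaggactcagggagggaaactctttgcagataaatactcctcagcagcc
Cxcl12, chr6:117168435-117168534, plus strand: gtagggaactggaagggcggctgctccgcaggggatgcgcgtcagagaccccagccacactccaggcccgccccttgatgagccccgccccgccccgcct
Cx3cl1, chr8:94772080-94772179, plus strand: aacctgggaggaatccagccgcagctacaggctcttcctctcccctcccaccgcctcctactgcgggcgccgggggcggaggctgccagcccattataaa

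Of the 39 members, 27 had an entry in that table, among them 7 of the 10 that were tested below. For these, 250 bases before each start were searched on both strands. The tested members without an entry were Ccl2, Ccl5 and Ccl7, so no motif could be searched in them. The NF-kB consensus, a degenerate motif of 10 letters, was found in 7 of the 27 members (Ccl1, Ccl20, Ccl9, Cxcl1, Cxcl2, Cxcl3 and Cxcl10) and in 7.25% of all 32851 windows of this length. Cxcl1, Cxcl2 and Cxcl3, neighbours on chromosome 5, held the same 10 letters GGGAATTTCC, at positions -71 to -62, -97 to -88 and -73 to -64 before their starts. Only 28 windows, or 0.0852% of all, held those 10 letters, which were read from the Cxcl1 window and then counted. In each of the 3 genes, a second match on the other strand overlapped the first and was shifted by 1 base.

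The interferon-stimulated response element, GAAANNGAAA, was found in Cxcl10 at positions -213 to -204, and in Ccl19 and Cxcl14, against 2.98% of all windows. The AP-1 motif, TGANTCA, occurred in Cxcl10 at positions -74 to -68 and in Ccl27a, Ccl27b and Ccl9, against 6.75% of all windows. The core letters of the Meis motif, TGACAG, were found in Ccl12, Ccl20 and Ccl9, against 15.9% of all windows. None of these 4 motifs lay in the windows of Cxcl12, Cx3cl1 or Ccl25. A match describes letters and is not a measurement of binding, and the motifs were chosen with results of these data known.

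**Figure D1:**
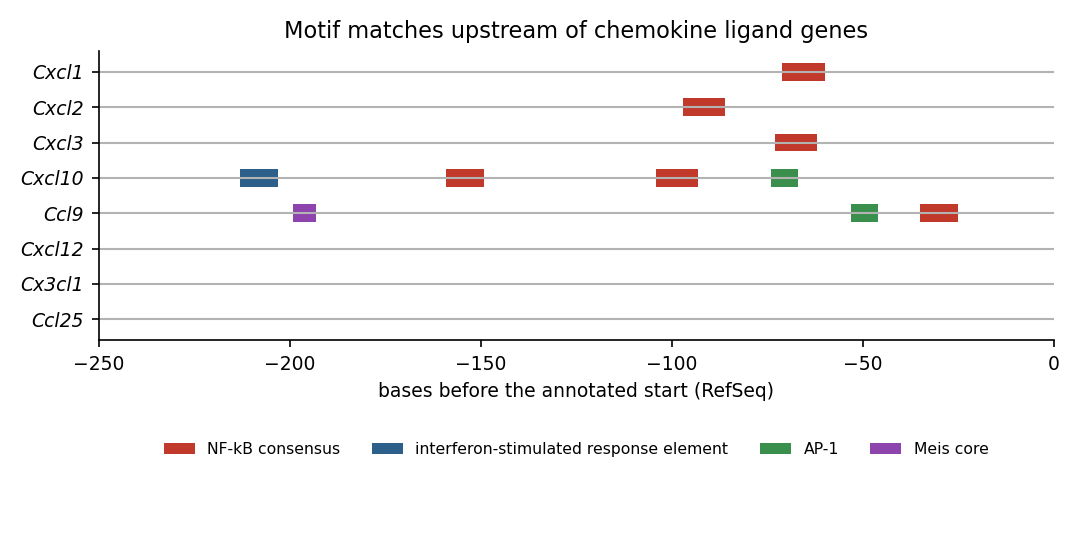
Each row is 1 gene and the x axis gives bases before its annotated start (RefSeq, GRCm38.p6), with boxes for matches to 4 motifs on either strand. Cxcl1, Cxcl2 and Cxcl3 hold NF-kB matches between positions -97 and -61, while Cxcl12, Cx3cl1 and Ccl25 hold none of the 4 motifs.

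Meis1 was counted 135325, 157828 and 149221 times in Meis1-OE A, B and C, against 39, 58 and 85 in YFP-CTRL A, B and C. Total counts ran from 34176592 to 47956569 per library. A count of 3, taken as the limit below which a gene was not detectable, stood for 0.0626 to 0.0878 CPM (counts scaled to a common library total), and all such limits cover counting error only. YFP-CTRL library C stood apart from the other YFP-CTRL libraries in a list of 15 proliferation genes, whose mean level was 6.50 in log2(CPM + 1) against 4.53 and 5.28 in YFP-CTRL libraries A and B and 6.52, 6.53 and 6.57 in the Meis1-OE libraries. Results that rest on this library are therefore given with and without it. All 10 endothelial markers were counted. Of 11 macrophage and monocyte markers, C1qa, C1qb, Tyrobp and Adgre1 were listed at 0 in all 6 libraries and 4 were counted highly enough to test, with values given with the other marker lists at the end.

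Most chemokine ligand genes were not detectable at this depth in either group. No count was recorded in any library for 18 of the 39 members, among them the lymphoid tissue ligands Ccl19, Ccl21a, Ccl21b and Ccl21c, the lymphocyte product Xcl1, the type 2 ligands Ccl22, Ccl24 and Ccl26, the neutrophil attractants Cxcl3 and Cxcl5, and the interferon-induced Cxcl9. The others at 0 were Ccl1, Ccl27a, Ccl27b, Ccl28, Cxcl14, Cxcl15 and Cxcl16. Cxcl16 overlaps Zmynd15 in the RefSeq annotation, so its 0 is uncertain. A further 9 members (Ccl3, Ccl4, Ccl6, Ccl8, Ccl12, Ccl17, Cxcl11, Cxcl13 and Cxcl17) reached 1 to 3 counts in their highest library, at or under the limit of detection. The remaining 12 exceeded 3 counts somewhere, and 10 of these passed edgeR's filter on low counts and entered the test: Ccl2, Ccl5, Ccl7, Ccl9, Ccl25, Cxcl1, Cxcl2, Cxcl10, Cxcl12 and Cx3cl1. The genes that failed the filter are not part of any count of changed members below.

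Across the 10 tested members, Ccl7 rose and Cxcl12 fell in Meis1-OE EC, and the other 8 did not pass the test. Calls were made with edgeR's quasi-likelihood test at a Benjamini-Hochberg adjusted p of 0.05 over all 16065 genes tested, of which 4.14% were called higher and 2.73% lower. In 2 members all Meis1-OE libraries lay above all YFP-CTRL libraries (Ccl7 and Cx3cl1), where 17.2% of all tested genes did so. In 2 members all Meis1-OE libraries lay below (Cxcl12 and Ccl9), where 15.9% of all tested genes did so. At an unadjusted p of 0.05, 2 members were higher and 4 lower, beside 12.8% and 13.4% of all tested genes. The median log2 fold change of the 10 members was -0.58, with 4 positive and 6 negative values, against 0.01 for all genes tested. These counts of 1 and 2 genes do not set the members apart from the background.

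**Figure D2:**
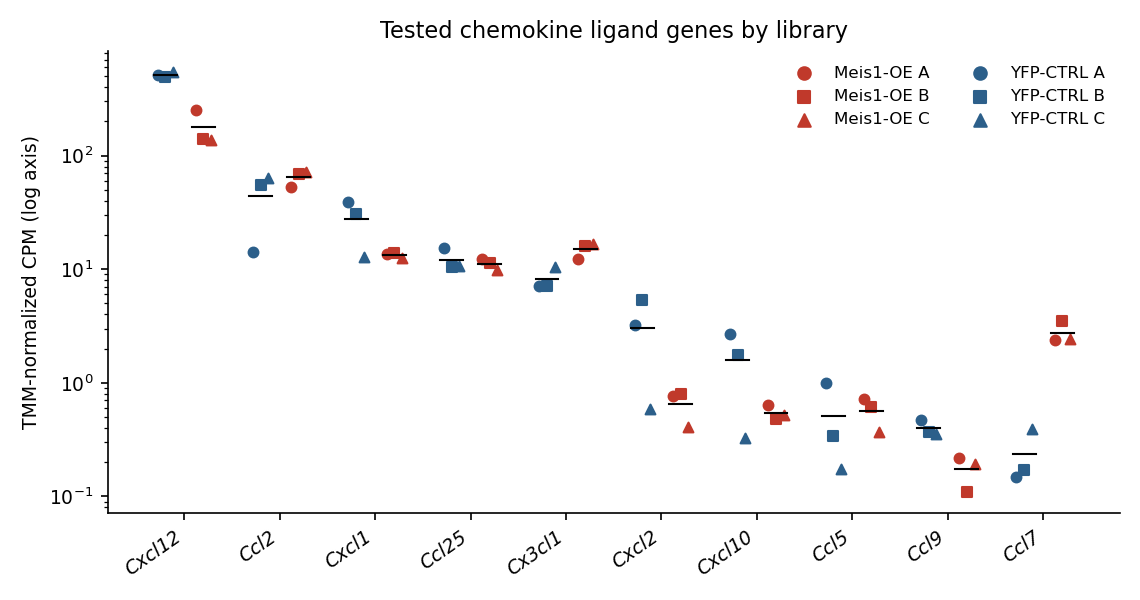
TMM-normalized CPM (log axis) of the 10 tested chemokine ligand genes in each library, blue for YFP-CTRL and red for Meis1-OE, with a bar at each group's mean. Cxcl12 is lower and Ccl7 higher in all 3 Meis1-OE libraries, and the YFP-CTRL values of Cxcl1, Cxcl2 and Cxcl10 are split between library C and the other two.

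Cxcl12, the homeostatic ligand of Cxcr4 that holds stem cells in their niche, was the member with the most reads and fell in Meis1-OE EC. It was counted 17336, 20046 and 24918 times in YFP-CTRL A, B and C and 11576, 6420 and 6420 times in Meis1-OE A, B and C. These are 510, 491 and 548 CPM after TMM normalization in the YFP-CTRL libraries and 253, 141 and 139 CPM in the Meis1-OE libraries. The groups did not overlap, the YFP-CTRL libraries lay close together, and Meis1-OE library A stood above B and C. The mean was 178 ± 65.4 CPM (SD, n = 3) in Meis1-OE EC and 517 ± 29.0 CPM (SD, n = 3) in YFP-CTRL EC, 2.91-fold lower with Meis1. The log2 fold change was -1.54 (SE 0.24, adjusted p = 0.0148, edgeR's quasi-likelihood test). The direction held with every library left out, at -1.88 to -1.39, but the adjusted p from the same test passed the threshold no longer without Meis1-OE library B (0.0845), Meis1-OE library C (0.0743) or YFP-CTRL library B (0.0756). In those 3 fits 0.0975%, 0.109% and 0.401% of all genes tested were called lower. Without YFP-CTRL library C it was 0.00939. The gene lies at chr6:117168535-117181368 (GRCm38.p6), apart from the chemokine clusters, and its upstream bases printed above were 73.0% G or C. In bulk libraries such as these, fewer cells that express a gene and less RNA per cell cannot be told apart.

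Ccl7, a monocyte attractant that acts through Ccr2 among other receptors, showed the opposite pattern. Its counts were 108, 158 and 113 in Meis1-OE A, B and C but 5, 7 and 18 in YFP-CTRL A, B and C. These correspond to 2.36, 3.48 and 2.44 CPM against 0.147, 0.172 and 0.396 CPM. Every Meis1-OE library lay well above every YFP-CTRL library, in which the gene was just above the detection limit in A and B and higher in C. The means were 2.76 ± 0.624 CPM and 0.238 ± 0.137 CPM (SD, n = 3 each), an 11.2-fold difference. The log2 fold change was 3.48 (SE 0.41, adjusted p = 0.00708, edgeR's quasi-likelihood test). Left-out libraries moved it between 3.24 and 4.07, with adjusted p from 0.00103 to 0.0453 in the same test, so the call held in each of the 6 fits. A filter of at least 10 counts in every library removes Ccl7, because YFP-CTRL libraries A and B fall under it.

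Ccl2, the main monocyte attractant of activated endothelium, lies 8.3 kb from Ccl7 on chromosome 11 (chr11:82035577-82037452 and chr11:82045712-82047525, GRCm38.p6) and did not pass the test. It was counted 2430, 3124 and 3316 times in Meis1-OE A, B and C and 479, 2238 and 2871 times in YFP-CTRL A, B and C. In CPM these were 53.2, 68.8 and 71.6 against 14.1, 54.9 and 63.2. The groups overlapped, and YFP-CTRL library A lay far below the other 5. The log2 fold change was 0.55 (SE 0.48, adjusted p = 0.504, edgeR's quasi-likelihood test) and was 0.11 without that library. Ccl7 made up 4.26%, 4.81% and 3.30% of the summed Ccl2 and Ccl7 reads in Meis1-OE A, B and C (95% Wilson intervals 3.54 to 5.11%, 4.13 to 5.60% and 2.75 to 3.95%). In YFP-CTRL A, B and C it made up 1.03%, 0.312% and 0.623% (0.442 to 2.40%, 0.151 to 0.642% and 0.394 to 0.983%). These intervals, like those of other read shares below, cover counting error only and not the spread between cultures, and every Meis1-OE share was above every YFP-CTRL share. The log2 ratio of Ccl7 to Ccl2, which needs no scaling between libraries, was -4.56 ± 0.29 in Meis1-OE EC and -7.41 ± 0.87 in YFP-CTRL EC (SD, n = 3 each). The difference of 2.85 had an exact two-sided permutation p of 0.1, the smallest that 3 libraries against 3 can give, and 0.1 after Benjamini-Hochberg adjustment over the 2 ratios tested this way.

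Ccl11 (eotaxin), the next gene of this cluster 10.3 kb beyond Ccl7, had 1, 8 and 10 counts in Meis1-OE A, B and C and 0 in all 3 YFP-CTRL libraries. It was too low for the filter. The count in Meis1-OE library A was under the limit of 3 counts per library. After TMM scaling, its summed 19 counts set against a limit of 3 counts over the 3 YFP-CTRL libraries together give a pooled ratio of at least 5.54. This ratio takes the 19 counts as exact and leaves out the spread between cultures. Without the filter on low counts its adjusted p was 0.106 in edgeR's quasi-likelihood test. Of the other genes of the cluster, Ccl12 and Ccl8 were at 3 counts or fewer in every library and Ccl1 was at 0. Ccl20, a ligand of Ccr6, had 4 counts in Meis1-OE library B, 1 count in YFP-CTRL library B and 0 in the rest.

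Cx3cl1, the membrane-anchored ligand that holds Cx3cr1-bearing monocytes, lay above the YFP-CTRL range in every Meis1-OE library but missed the threshold. It was counted 566, 731 and 765 times in Meis1-OE A, B and C and 241, 288 and 473 times in YFP-CTRL A, B and C. The levels were 12.4, 16.1 and 16.5 CPM against 7.09, 7.06 and 10.4 CPM. The groups did not overlap, and YFP-CTRL library C was the nearest to the Meis1-OE libraries. The mean was 15.0 ± 2.28 CPM against 8.19 ± 1.92 CPM (SD, n = 3 each), 1.83-fold. The log2 fold change was 0.87 (SE 0.21, adjusted p = 0.0520, edgeR's quasi-likelihood test). When YFP-CTRL library C was left out it was 1.07 (adjusted p = 0.00385, same test), a fit in which 16.5% of all genes tested were called higher. DESeq2 called Cx3cl1 as well (adjusted p = 0.00524), with 6.21% of its 18158 tested genes called higher.

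The neutrophil attractants Cxcl1 and Cxcl2, which bind Cxcr2, and the interferon-induced Cxcl10 formed another pattern, in which the YFP-CTRL libraries did not form one group. Cxcl1 was counted 628, 637 and 583 times in Meis1-OE A, B and C and 1339, 1258 and 584 times in YFP-CTRL A, B and C, or 13.7, 14.0 and 12.6 CPM against 39.4, 30.8 and 12.9 CPM. Cxcl2 was counted 35, 36 and 19 times against 109, 220 and 27 times, or 0.766, 0.793 and 0.410 CPM against 3.21, 5.39 and 0.594 CPM. Cxcl10 was counted 29, 22 and 24 times against 92, 72 and 15 times, or 0.634, 0.485 and 0.518 CPM against 2.71, 1.76 and 0.330 CPM. For all 3 genes, YFP-CTRL libraries A and B lay above every Meis1-OE library and YFP-CTRL library C lay within or below the Meis1-OE range. The highest YFP-CTRL value was 3.07 times the lowest for Cxcl1, 9.08 times for Cxcl2 and 8.20 times for Cxcl10, while the Meis1-OE values spread over 1.11, 1.93 and 1.31 times. The wider spread in YFP-CTRL EC was shared by 8 of the 10 tested members and by 78.7% of all genes tested.

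None of the 3 passed edgeR's quasi-likelihood test over 6 libraries. The log2 fold change of Cxcl1 was -1.04 (SE 0.36, adjusted p = 0.129, same test). For Cxcl2 it was -2.22 (SE 0.72, adjusted p = 0.112, same test) and for Cxcl10 -1.53 (SE 0.66, adjusted p = 0.195, same test). Without YFP-CTRL library C the values were -1.39 (adjusted p = 0.00104), -2.72 (0.00361) and -2.03 (0.00458) in edgeR's quasi-likelihood test, all past the threshold. Other control libraries moved the values the other way: without YFP-CTRL library A, Cxcl1 was at -0.72 (adjusted p = 0.266, same test) and Cxcl10 at -0.95 (adjusted p = 0.424, same test), and without YFP-CTRL library B, Cxcl2 was at -1.50 (adjusted p = 0.331, same test). In the fit without library C 15.2% of all genes tested were called lower, against 2.73% with all libraries. DESeq2 on all 6 libraries called Cxcl1 (adjusted p = 0.0345) and Cxcl2 (adjusted p = 0.00883) lower but not Cxcl10 (adjusted p = 0.0970), with 6.14% of all its tested genes called lower.

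The 2 YFP-CTRL libraries with high Cxcl1, Cxcl2 and Cxcl10 were those with the lowest proliferation genes, at 4.53 and 5.28 in mean log2(CPM + 1). YFP-CTRL library C, with low levels of the 3 ligands, was at 6.50, next to the Meis1-OE libraries at 6.52 to 6.57. The proliferation list itself had 0 of 15 genes called in either direction with edgeR's quasi-likelihood test and 2 higher at an unadjusted p of 0.05. The part of proliferation in these differences was not tested. Cxcl1 and Cxcl2 lie 10.8 kb apart on chromosome 5 (chr5:90891245-90893121 and chr5:90903899-90905938, GRCm38.p6) and share the NF-kB match printed above, as does their neighbour Cxcl3, which was listed at 0 in all libraries. Cxcl10 lies farther along the chromosome (chr5:92346638-92348889) and overlaps Art3 in the RefSeq annotation, so reads could be shared where strand was not used.

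**Figure D3:**
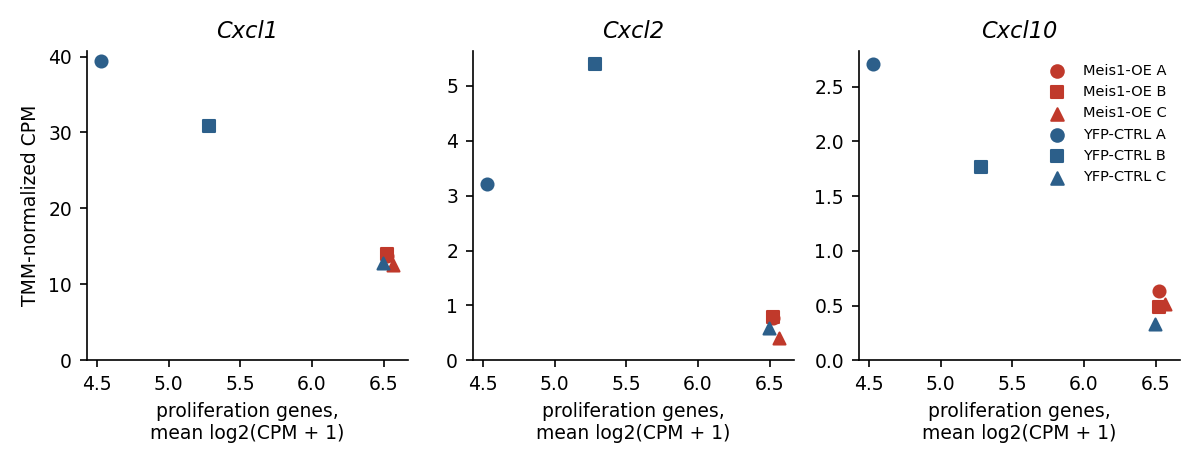
TMM-normalized CPM of Cxcl1, Cxcl2 and Cxcl10 (y axes from 0) against the mean log2(CPM + 1) of 15 proliferation genes, with 1 point per library. YFP-CTRL libraries A and B stand apart at 4.53 and 5.28 on the x axis with the highest levels of all 3 genes, and YFP-CTRL library C at 6.50 sits among the Meis1-OE libraries.

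The remaining tested members were Ccl9, Ccl25 and Ccl5. Ccl9, a ligand of Ccr1, had 10, 5 and 9 counts in Meis1-OE A, B and C but 16, 15 and 16 in YFP-CTRL A, B and C. All Meis1-OE values were lower, but the log2 fold change of -1.16 (SE 0.38) had an adjusted p of 0.109 in edgeR's quasi-likelihood test. Its deposited counts were not whole in any of the 6 libraries, by up to 0.466 from the nearest whole number, as when reads are divided between genes, so its level is uncertain. Of the 7 tested members with a promoter window, Ccl9 alone held the Meis core letters, at positions -199 to -194.

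Ccl25, the ligand of Ccr9 known from thymus and small intestine, was counted 568, 517 and 454 times in Meis1-OE A, B and C and 520, 429 and 484 times in YFP-CTRL A, B and C. These were 12.4, 11.4 and 9.80 CPM against 15.3, 10.5 and 10.7 CPM, with overlapping groups. Its log2 fold change was -0.12 (SE 0.19, adjusted p = 0.744, edgeR's quasi-likelihood test) and turned to 0.022 when libraries were scaled by their totals. Ccl5, an attractant of T cells and monocytes, had 33, 28 and 17 counts against 34, 14 and 8. Its groups overlapped, and its log2 fold change was 0.20 (SE 0.62, adjusted p = 0.872, same test), with values from -0.22 to 1.12 when single libraries were left out.

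**Figure D4:**
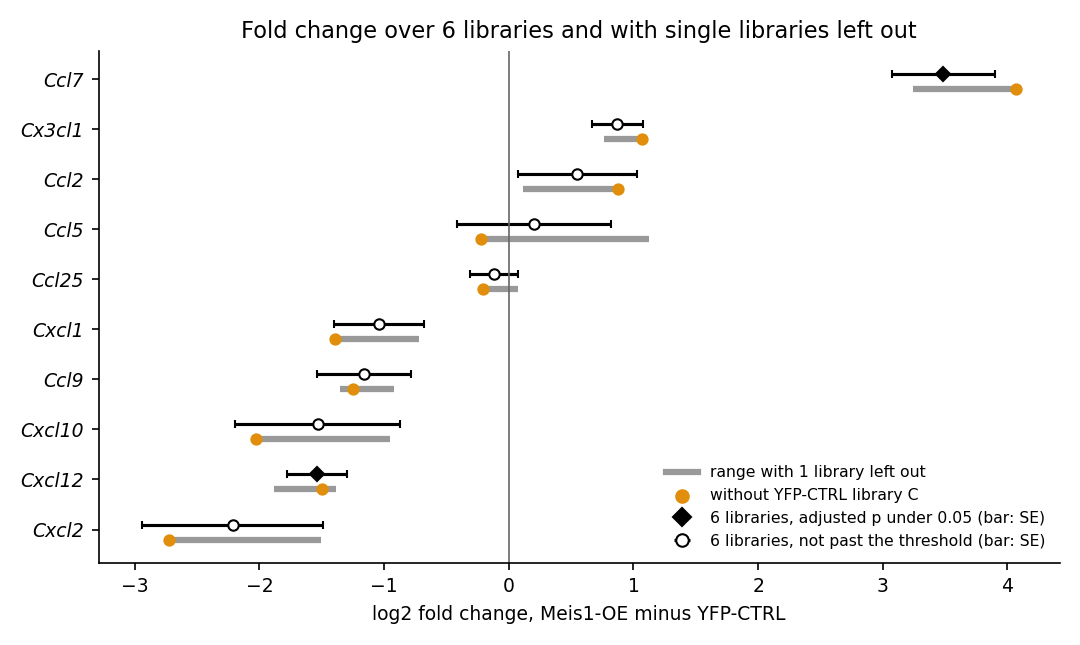
Log2 fold change (Meis1-OE minus YFP-CTRL, x axis) of the 10 tested members over all 6 libraries with its standard error, with grey bars for the range when 1 library is left out and orange points for the fit without YFP-CTRL library C. Filled diamonds mark Ccl7 and Cxcl12, which passed an adjusted p of 0.05, and the orange points of Cxcl1, Cxcl2 and Cxcl10 lie at the lower end of their ranges.

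The fall of Cxcl12 went with a different make-up of chemokine reads. Summed over the 39 members, YFP-CTRL A, B and C held 594, 603 and 647 CPM and Meis1-OE A, B and C held 350, 258 and 253 CPM. With Cxcl12 left out the sums were 83.5, 111 and 99.1 CPM against 96.6, 116 and 115 CPM, with overlapping groups. Cxcl12 took 85.9%, 81.5% and 84.7% of the chemokine reads in YFP-CTRL A, B and C (95% Wilson intervals, counting error only, 85.4 to 86.4%, 81.0 to 82.0% and 84.3 to 85.1%). In Meis1-OE A, B and C it took 72.4%, 54.9% and 54.7% (71.7 to 73.1%, 54.0 to 55.8% and 53.8 to 55.6%), so libraries of a group differed by far more than these intervals. Ccl2 took 15.2%, 26.7% and 28.3% of the reads in Meis1-OE EC and 2.37%, 9.10% and 9.76% in YFP-CTRL EC. Every Meis1-OE library was below every YFP-CTRL library for the Cxcl12 share and above it for the Ccl2 share. The Ccl2 share also rises when Cxcl12 reads fall, and the Ccl2 level itself overlapped between the groups and did not pass the test. The log2 ratio of Cxcl12 to all other members was 0.65 ± 0.64 in Meis1-OE EC and 2.41 ± 0.24 in YFP-CTRL EC (SD, n = 3 each). The difference was -1.76, with an exact two-sided permutation p of 0.1, again the smallest possible.

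**Figure D5:**
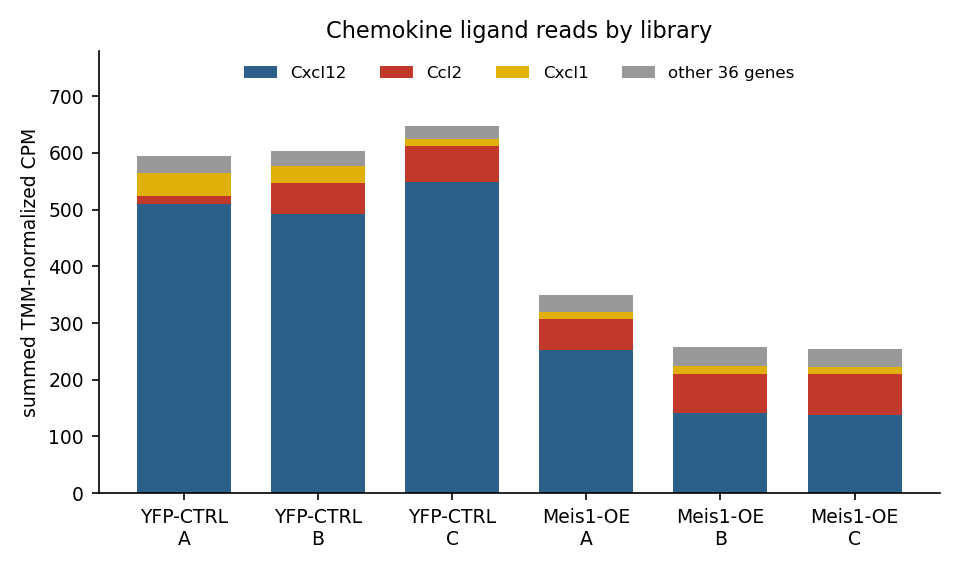
Stacked bars give the summed TMM-normalized CPM of the chemokine ligand genes in each library, divided into Cxcl12, Ccl2, Cxcl1 and the other 36 genes. The bars of the Meis1-OE libraries reach 253 to 350 CPM and those of the YFP-CTRL libraries 594 to 647 CPM, and the difference lies in the Cxcl12 segment.

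The read shares above are not scaled by length, and Cxcl12 has 8176 annotated exon bases against 1138 for Ccl2. Levels of different genes were therefore also compared per length, as CPM per kb of annotated exon (union of exons of each symbol in an NCBIM37 annotation). This union counts every annotated exon, so it understates the level of a gene whose transcripts use only part of them. Which transcripts were present was not measured, so the order between genes depends on this choice of length. On this scale the order in YFP-CTRL EC was Cxcl12 at 63.2 ± 3.55, Ccl2 at 38.7 ± 23.1, Cxcl1 at 29.1 ± 14.2 and Ccl25 at 4.55 ± 1.02 CPM per kb (SD, n = 3 each). Cx3cl1 followed at 2.21 ± 0.519, Cxcl2 at 1.68 ± 1.31 and Cxcl10 at 1.05 ± 0.788 CPM per kb. Ccl5, Ccl7 and Ccl9 were lowest at 0.528 ± 0.454, 0.298 ± 0.171 and 0.130 ± 0.0212 CPM per kb. The range of Cxcl12, from 60.1 to 67.1 CPM per kb, did not meet that of Ccl2, from 12.4 to 55.5, whereas the ranges of Ccl2 and Cxcl1 overlapped.

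On this scale, Ccl2 headed the order in Meis1-OE EC at 56.7 ± 8.74 CPM per kb. It lay above Cxcl12 at 21.7 ± 8.0 and Cxcl1 at 14.1 ± 0.801 CPM per kb (SD, n = 3 each). Not scaled by length, Cxcl12 stayed above Ccl2, at a mean of 178 against 64.5 CPM. The Ccl2 range of 46.7 to 62.9 CPM per kb lay above the Cxcl12 range of 17.0 to 31.0, which in turn lay above the Cxcl1 range of 13.2 to 14.7. Ccl25 at 4.20 ± 0.495, Cx3cl1 at 4.05 ± 0.615 and Ccl7 at 3.45 ± 0.780 CPM per kb came next and did not differ beyond their spread. Ccl7 moved from rank 9 to rank 6 of the 10 members. Ccl5 at 0.592 ± 0.190, Cxcl10 at 0.359 ± 0.0517, Cxcl2 at 0.359 ± 0.117 and Ccl9 at 0.0573 ± 0.0187 CPM per kb closed the order.

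Except for the atypical receptor Ackr3, described below, the receptors for these ligands were scarcely counted in either group. Of the 9 higher and 2 lower calls among all lists described from here on, 1 higher (Jam2) and no lower call passed the threshold without Meis1-OE library B or without Meis1-OE library C, and 1 of each (Jam2 and Lyve1) without YFP-CTRL library B. The background for each list is the set of 16065 tested genes, of which 4.14% were called higher and 2.73% lower. With p left unadjusted, the background shares under 0.05 were 12.8% higher and 13.4% lower. No list was tested against these shares. Of 19 chemokine receptor genes, 5 were at 0 in all libraries and 6 were tested. Of these 6, 2 rose and none fell in edgeR's quasi-likelihood test. Ccr1, the receptor of Ccl9, Ccl7 and Ccl5, had 46, 46 and 40 counts in Meis1-OE A, B and C against 9, 10 and 12 in YFP-CTRL A, B and C (log2 fold change 1.89, adjusted p = 0.0119, same test). Ccr7, the receptor of Ccl19 and Ccl21, had 37, 22 and 23 counts against 4, 5 and 6 (2.23, adjusted p = 0.0192, same test). Both stayed near or under 1 CPM in every library. Cxcr4, the signalling receptor of Cxcl12, reached 2 counts at most, and Ccr2, the receptor of Ccl2 and Ccl7, reached 1. Cxcr2, which binds Cxcl1 and Cxcl2, had 94, 68 and 51 counts in Meis1-OE A, B and C. In YFP-CTRL A, B and C it had 83, 80 and 59 (log2 fold change -0.29, adjusted p = 0.630, same test). Its deposited counts were not whole in any of the 6 libraries.

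Ackr3, the atypical receptor that removes Cxcl12 from its surroundings, was the 1 tested gene of 4 atypical receptors and was well counted at 110, 104 and 112 CPM in Meis1-OE A, B and C and 107, 214 and 140 CPM in YFP-CTRL A, B and C. Its groups overlapped, with a log2 fold change of -0.50 (adjusted p = 0.228, edgeR's quasi-likelihood test). The platelet ligand Pf4 had a log2 fold change of -0.35 (adjusted p = 0.728, same test) and Ppbp was too low to test.

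Genes known to regulate chemokine transcription were read from lists. None of the 14 tested genes of the NF-kB subunits, kinases and inhibitors was called by edgeR's quasi-likelihood test in either direction, with 1 higher and 3 lower at an unadjusted p of 0.05. Rela, the subunit best known for driving these ligands, had a log2 fold change of -0.34 (adjusted p = 0.0795, same test), and Nfkbia, its inhibitor, -0.04 (adjusted p = 0.845, same test). Of the 18 interferon signalling and induced genes, all tested, 2 rose and none fell, and Stat2 was higher by a log2 fold change of 0.99 (adjusted p = 0.0266, same test). The median over these 18 genes was 0.87, with 7 higher and none lower at an unadjusted p of 0.05. Cxcl10, whose window holds the interferon element, had values in the other direction (log2 fold change -1.53, not past the test), and Cxcl9 and Cxcl11 were at or under 3 counts.

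Of 16 tested receptors and adaptors that induce chemokines, Il6ra rose (log2 fold change 1.12, adjusted p = 0.0252, edgeR's quasi-likelihood test) and so did Il4ra (0.86, adjusted p = 0.0218, same test), with none lower. The IL-1 receptor Il1r1 had a log2 fold change of 0.37 (adjusted p = 0.331, same test) and the TNF receptor Tnfrsf1a -0.09 (adjusted p = 0.750, same test). None of 8 mRNA decay factors that act on chemokine transcripts was called, with 1 higher and 2 lower at an unadjusted p of 0.05 in the same test.

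Few genes that act beside chemokines at the vessel wall passed the test. Of 7 tested leukocyte adhesion partners 1 rose, the junction protein Jam2 (log2 fold change 1.99, adjusted p = 0.00350, edgeR's quasi-likelihood test), at 84.4, 114 and 133 CPM in Meis1-OE A, B and C against 27.8, 31.1 and 24.6 CPM in YFP-CTRL A, B and C. Icam1 was at 2 to 12 counts in all libraries and was not tested. Its deposited counts were not whole in 4 libraries, as when reads are divided between genes, so its level is uncertain. None of the 5 tested proteases that shed or trim chemokines was called, with 1 higher at an unadjusted p of 0.05. Adam10, which sheds Cx3cl1, had a log2 fold change of 0.42 (adjusted p = 0.0863, same test). None of 15 tested genes for heparan sulfate core proteins and synthesis was called, with 3 higher and 3 lower at an unadjusted p of 0.05.

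Markers of other cells were read as possible companions of the chemokine values. The summed level of 11 macrophage and monocyte markers ran from 71.0 to 107 CPM in Meis1-OE EC and from 66.1 to 141 CPM in YFP-CTRL EC, nearly all of it Cd68, with 0 of 4 tested genes past edgeR's quasi-likelihood test and 2 higher at an unadjusted p of 0.05. The median log2 fold change of the 4 was 1.07. Csf1r had 15, 26 and 18 counts in Meis1-OE EC and 1, 4 and 12 in YFP-CTRL EC (log2 fold change 1.63, adjusted p = 0.148, same test). Lyz2 had 6, 40 and 37 counts against 8, 8 and 7 (1.63, adjusted p = 0.181, same test), and Cd14 50, 46 and 49 against 31, 30 and 26 (0.52, adjusted p = 0.278, same test). Cd68 itself had a log2 fold change of -0.23 (adjusted p = 0.653, same test). Among markers too low to test, Ptprc had 1, 1 and 0 counts against 1, 1 and 4, and Fcer1g 2, 0 and 0 against 4, 1 and 4. Itgam had 3, 1 and 2 counts against 1, 0 and 0. The values of Csf1r and Cd14 did not overlap between the groups and lay in the direction of Ccl7, while those of Cd68, Ptprc and Fcer1g did not lie in that direction. The part of Csf1r and Cd14 in the Ccl7 result was not tested. The 8 lymphocyte markers, with Cd3d and Nkg7 among those at 0, summed to at most 0.824 CPM in any library, with 0 of 1 tested gene called. Fibroblast and smooth muscle markers, 10 in all, summed to 13.2 to 15.6 CPM in Meis1-OE EC and 34.0 to 51.9 CPM in YFP-CTRL EC, without overlap. That sum followed Cxcl12 in direction, and its part in the Cxcl12 result was not tested. Col1a1 had 1 to 8 counts in any library and Lum was at 0, while Pdgfra made up most of the sum in YFP-CTRL libraries A and B and Acta2 in C. None of the 2 tested genes of that list was called, with 1 lower at an unadjusted p of 0.05.

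Of the 10 endothelial markers, Vwf (log2 fold change 3.12, adjusted p = 0.0120) and Cldn5 (1.81, adjusted p = 0.0398) rose and Tek (-0.78, adjusted p = 0.0351) fell in edgeR's quasi-likelihood test, with 2 higher and 4 lower at an unadjusted p of 0.05. Kdr (-1.23, adjusted p = 0.0504, same test) and Cdh5 (-0.70, adjusted p = 0.0535, same test) missed the threshold with all Meis1-OE libraries below all YFP-CTRL libraries. The summed level of the list ran from 3465 to 4357 CPM in Meis1-OE EC and from 4489 to 6189 CPM in YFP-CTRL EC, without overlap. Its direction was that of Cxcl12, but it rested mainly on Cdh5 (mean 1316 against 2143 CPM) and Kdr (319 against 751 CPM). The median log2 fold change of the 10 genes was -0.02, and Tie1, Emcn and Eng, like Vwf and Cldn5, had positive values. Of 6 lymphatic endothelial markers 2 were tested and Lyve1 fell (-1.84, adjusted p = 0.0301, same test), from 230, 461 and 161 CPM in YFP-CTRL A, B and C to 76.1, 77.9 and 84.1 CPM in Meis1-OE A, B and C. Prox1, which defines lymphatic identity, had at most 2 counts. The part of these shifts between endothelial genes in the levels of Cxcl12 and Ccl7 was not tested.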

How the data were processed

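RNA-seq covered 6 libraries, 3 of Meis1-OE EC and 3 of YFP-CTRL EC, grouped by the sample labels. Values are as the authors deposited them, namely estimated counts without normalization for each of 54429 gene symbols. The submitters' processing notes name build mm10, and the aligner, the counting tool, the annotation and the use of strand are not given in the sources used here. In each library 7767 to 8411 genes carried fractional values, as happens when reads are divided between genes, and all values were rounded. The members and lists were chosen with earlier results of these data known.

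The package edgeR 4.0.16 under R 4.3.3 was used: filterByExpr left 16065 genes, TMM factors scaled the libraries, and the quasi-likelihood test was fitted to all genes left, with Benjamini-Hochberg adjustment. The standard error was derived from the F statistic, and the biological coefficient of variation was 0.233. The authors' own tool for this comparison, DESeq2 (version 1.42.0 here), was run as an alternative. The code was tested on simulated counts. Pairs of libraries within a group differed by 19.0 to 204 in chi-square per degree of freedom, so none was a duplicate. All tested members were named, and up to 4 genes past the threshold of each list, while others named in the text were chosen after their values were seen. Some listed genes are not reported here by name. Alternatives were other size factors, library totals, other filters and thresholds, DESeq2, a replicate block and leaving out each library. Motifs were searched in RefSeq promoter windows (GRCm38.p6), figures were drawn with matplotlib 3.10.9, and all columns of the table were used.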

Additional observations from a re-analysis of the deposited data

How the results depend on the processing

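Cxcl12 kept its negative and Ccl7 its positive log2 fold change in every alternative that could fit them. Counts of called members moved with the setting. Chemokine ligand genes called higher were 2 (Ccl7 and Cx3cl1) on library totals (6.52% of all genes), without the filter on low counts (2.38%), with DESeq2 (6.21%), with the replicate block (3.39%) and at an adjusted p of 0.1 (7.08%), were 0 with at least 10 counts in every library (3.29%), which removes Ccl7, and ran from 1 to 2 when single libraries were left out (0.701% to 16.5%). Members called lower were 3 with DESeq2 (6.14% of all genes), 0 at an adjusted p of 0.01 (0.249%), and from 0 to 4 with single libraries left out (0.0975% to 15.2%). Of all genes, 665 were called higher and 438 lower. The counts were 1048 and 179 on library totals, which moved the median of all genes to 0.15 on the log2 scale, and 1128 and 1115 with DESeq2. They ran from 115 to 2717 and from 16 to 2498 with single libraries left out, highest without YFP-CTRL library C and lowest without Meis1-OE library B. The log2 fold change of Ccl25 reversed to 0.022 on library totals and to 0.071 without YFP-CTRL library A (range -0.21 to 0.071). That of Ccl5 reversed to -0.01 without Meis1-OE library A and to -0.22 without YFP-CTRL library C (range -0.22 to 1.12). The causes were not tested. The median of the tested members was -1.03 with at least 10 counts in every library. Pathway list genes called were 9 higher and 2 lower, 19 and 10 with DESeq2, and 1 to 36 and 0 to 17 with single libraries left out.

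The labels number the replicates and the columns carry letters, with no map between them. Deviations from the group means correlated at 0.245, 0.190 and 0.0809 for the same letter A, B and C. Among pairs with different letters, Meis1-OE library C and YFP-CTRL library B correlated at 0.249, and the rest at -0.301 to -0.0275. These values do not settle whether the letters mark pairs, so letters were not taken as pairs in the main test. With the letter as a replicate block, 544 genes were called higher and 189 lower, and Cx3cl1 had an adjusted p of 0.0497 in edgeR's quasi-likelihood test. Depth limited what could be said of the members that were not tested, and 3 libraries a group limited the rest.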
